A study of Mus musculus with 25 samples.

Results

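The 7 Kupffer cell genes Csf1r, Adgre1, Marco, Timd4, Vsig4, Clec4f and Cd5l were followed in mouse liver with and without the survival protein Mcl-1 in hepatocytes. They were picked by name, as genes held to mark the resident macrophages of the liver, out of 17016 genes with a symbol on the array. A gene was read by the probe with the highest mean signal among those whose printed accession belongs to it. RNA from whole liver homogenates of 18 untreated mice was hybridised to 25 single-colour arrays. At 2 months of age there were 2 wild-type mice, 3 mice labelled Mcl-1 hemizygous and 3 labelled Mcl-1 ko. A further 3 Mcl-1 ko mice were 8 months old, and the oldest group, at 12 months, held 4 Mcl-1 ko and 3 wild-type mice. Each of the 7 older knockout mice gave a piece of tumor and a piece of non-tumor liver, and the wild-type and 2-month mice gave liver without tumor. The deletion is hepatocyte-specific, so the macrophages of a knockout liver are not the cells in which the gene was deleted. The line that drives the deletion, the strain and the sex are not given in the sources used here.

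Kupffer cells line the liver sinusoids, where they take up bacteria, old blood cells and dying cells from the portal blood. They are seeded before birth and renew themselves, and when they are lost, monocytes from the blood can take their place and acquire their genes over time. Csf1r, the receptor for the growth factors CSF1 and IL-34, and Adgre1, which encodes the F4/80 antigen, are carried by macrophages of many origins. Marco and Timd4 are uptake receptors, Marco for bacteria and particles and Timd4 for phosphatidylserine on dying cells. Vsig4 is a receptor for complement C3 fragments, Clec4f is a C-type lectin almost restricted to Kupffer cells in the mouse, and Cd5l is a secreted protein of tissue macrophages. Timd4 is held to mark long-resident Kupffer cells in particular, since monocyte-derived ones gain it late. Mcl-1 keeps hepatocytes alive, and its loss in them is known to cause cell death, liver injury and tumors.

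Macrophage genes are known to be switched on by the transcription factor PU.1, whose binding sites centre on GAGGAA. The 250 bases before the transcription start of 5 of the 7 genes are shown because their products define the cell type and because the levels of several varied together across arrays, as described further on. For Timd4 the table's transcription start lies downstream of the first base of the gene's annotation (46810786), so the end of its window is inside the annotated gene. The sequences are from RefSeq, assembly GRCm38.p6, 5′ to 3′ on the strand of the gene, with GAGGAA or its reverse complement TTCCTC in capitals.
Marco (chr1:120505025-120505274, - strand): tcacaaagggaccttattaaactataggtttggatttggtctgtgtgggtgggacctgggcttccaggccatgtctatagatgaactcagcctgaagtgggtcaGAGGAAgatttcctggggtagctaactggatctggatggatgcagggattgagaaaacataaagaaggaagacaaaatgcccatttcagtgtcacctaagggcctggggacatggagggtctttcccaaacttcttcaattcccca
Vsig4 (chrX:96293439-96293688, - strand): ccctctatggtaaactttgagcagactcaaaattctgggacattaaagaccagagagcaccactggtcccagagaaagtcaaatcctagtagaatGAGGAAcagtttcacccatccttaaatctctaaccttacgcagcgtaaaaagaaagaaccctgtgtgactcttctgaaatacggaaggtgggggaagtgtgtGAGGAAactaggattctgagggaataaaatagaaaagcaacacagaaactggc
Cd5l (chr3:87357631-87357880, + strand): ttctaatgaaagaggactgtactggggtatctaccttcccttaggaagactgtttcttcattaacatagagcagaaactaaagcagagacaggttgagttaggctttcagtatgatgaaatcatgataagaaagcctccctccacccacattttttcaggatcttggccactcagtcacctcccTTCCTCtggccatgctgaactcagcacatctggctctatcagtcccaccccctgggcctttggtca
Clec4f (chr6:83656117-83656366, - strand): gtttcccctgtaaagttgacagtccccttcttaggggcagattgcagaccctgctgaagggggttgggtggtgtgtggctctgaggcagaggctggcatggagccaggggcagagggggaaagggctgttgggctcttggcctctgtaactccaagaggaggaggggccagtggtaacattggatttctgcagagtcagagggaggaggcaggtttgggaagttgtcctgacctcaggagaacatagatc
Timd4 (chr11:46810549-46810798, + strand): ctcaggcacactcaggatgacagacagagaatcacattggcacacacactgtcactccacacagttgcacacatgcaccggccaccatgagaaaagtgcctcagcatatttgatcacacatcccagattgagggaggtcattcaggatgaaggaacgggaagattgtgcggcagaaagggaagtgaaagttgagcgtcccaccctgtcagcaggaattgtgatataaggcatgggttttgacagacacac
These letters were found in 3 of the 5 windows. Marco held GAGGAA once, its first letter at position -146 relative to the transcription start. Vsig4 held it at positions -155 and -53. Cd5l held the reverse complement at position -66. The windows of Clec4f and Timd4 held neither. Of 32851 promoter windows of the same length, 7639 (23.3%) held these letters on either strand. The core TGANTCA, known from AP-1 factors, was in none of the 5 windows and in 6.75% of all. A match in these windows is a description of the letters and shows no binding.

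The arrays held 41174 probes, and 60.4% to 85.0% of them were well above background, with 76.4% next after the highest array, wild-type animal 641 at 12 months. Values are given as a level, which is the log2 processed signal minus the 75th percentile of that array. A level is compared only between arrays for the same probe. All 7 genes were well above background on all 25 arrays. Mcl1, the deleted gene, lay at 4.02 and 4.50 in 2-month wild-type liver, from 3.20 to 3.58 in hemizygous liver and from 1.53 to 2.09 in knockout liver. At 12 months it lay from 3.88 to 4.50 in wild-type and from 2.39 to 2.82 in knockout non-tumor liver, so each of these arrays stood on the side its label gives. In knockout mice of 8 months it lay from 1.68 to 3.06 in non-tumor liver and from 1.79 to 2.96 in tumors. The 12-month tumors lay from 1.46 to 2.83. These arrays were all below the lowest hemizygous array, but some were well above the 2-month knockout arrays. Xist, which is expressed from the inactive X chromosome of females, was well above background on 15 of 25 arrays. These were 3 of 3 hemizygous, 1 of 3 2-month knockout, 1 of 2 2-month wild-type and 1 of 3 12-month wild-type arrays. The 8-month knockout mice had it on 3 of 3 non-tumor arrays (lowest level -4.98) but on 2 of 3 tumor arrays (lowest level -7.39) of the same animals. At 12 months knockout mice had it on 2 of 4 arrays of each tissue. The groups were thus not balanced for it. The hepatocyte markers on the array were well above background in every group, and summed to linear signals of 2420 to 4865 times the 75th percentile.

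**Figure D1:**
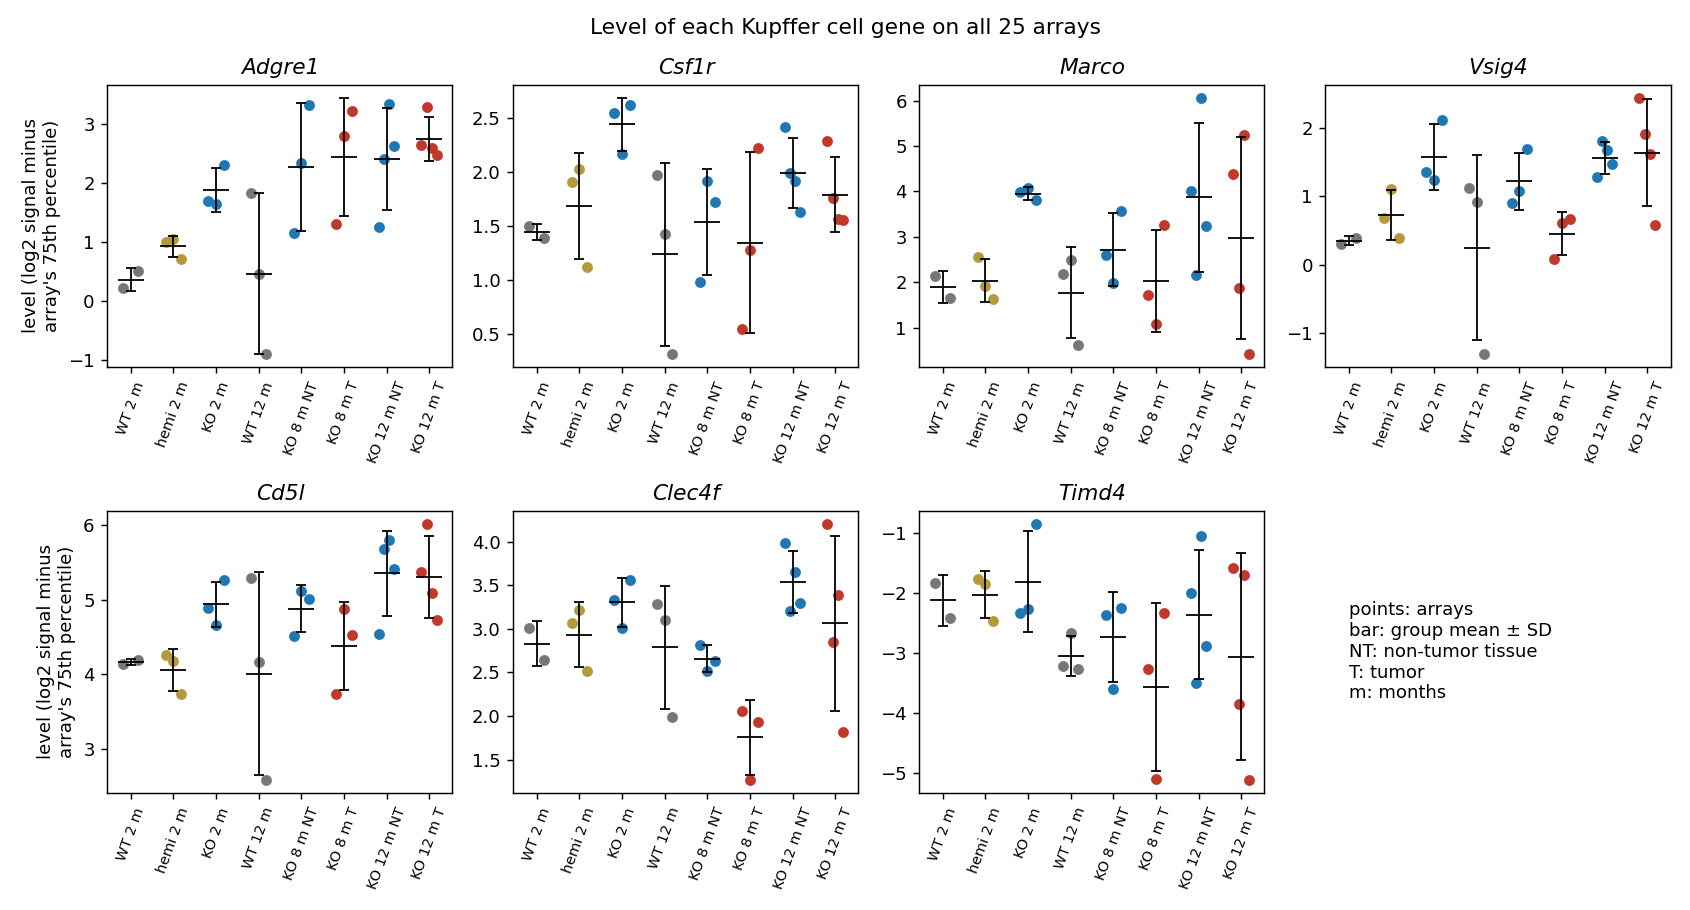
Levels of the 7 genes (y axis, log2 signal minus the 75th percentile of the array) in the 8 groups (x axis), with a point per array and a bar for the group mean ± SD. At 2 months the 3 knockout arrays of Marco (3.80 to 4.07) lie above all wild-type and hemizygous arrays (1.62 to 2.56), while those of Timd4 overlap with the controls.

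At 2 months the 7 genes were all higher on average in knockout than in wild-type liver, by 1.24-fold to 4.17-fold, and none passed the test over all genes. The receptor Marco differed most and the resident marker Timd4 least. The knockout arrays lay above the wild-type arrays without overlap for 5 of the 7 genes, against 17.5% of all 27114 genes tested in that direction. Here and below, the genes tested include probes without a gene symbol, each counted as an entry of its own. The median change of the 7 was 1.0 on the log2 scale, beside -0.02 for all genes.

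The pair of genes shared by macrophages of many origins came first. Csf1r was at 1.50 and 1.39 in wild-type, at 1.91, 2.03 and 1.12 in hemizygous and at 2.55, 2.16 and 2.62 in knockout liver. The knockout arrays lay above all others. Its change against wild-type liver was 1.0 ± 0.45 (SE; 2.00-fold; adjusted p = 0.540). Adgre1 was at 0.23 and 0.50 in wild-type, at 1.01, 1.05 and 0.72 in hemizygous and at 1.70, 1.65 and 2.31 in knockout liver. For this gene the 3 groups had no shared range, and the hemizygous arrays lay between the others. The change against wild-type was 1.52 ± 0.73 (2.86-fold; adjusted p = 0.581).

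Of the uptake receptors, Marco was at 2.14 and 1.64 in wild-type, at 2.56, 1.91 and 1.62 in hemizygous and at 3.98, 4.07 and 3.80 in knockout liver. The 3 knockout arrays lay close together and far above the 5 others. The change was 2.06 ± 0.86 (4.17-fold; adjusted p = 0.514). Timd4 was at -1.83 and -2.42 in wild-type, at -1.77, -1.84 and -2.47 in hemizygous and at -2.32, -2.27 and -0.84 in knockout liver. Only knockout animal 137 was above the controls, and the other two knockout arrays lay within the range of the wild-type and hemizygous arrays. The change was 0.31 ± 0.65 (1.24-fold; adjusted p = 0.936), and without animal 137 it was -0.17.

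Vsig4, the complement receptor, was at 0.31 and 0.40 in wild-type, at 0.69, 1.11 and 0.39 in hemizygous and at 1.35, 1.23 and 2.12 in knockout liver. Its knockout arrays lay above all controls, with a change of 1.22 ± 0.57 (2.33-fold; adjusted p = 0.560). The lectin gene Clec4f was at 3.01 and 2.64 in wild-type, at 3.07, 3.22 and 2.51 in hemizygous and at 3.33, 3.01 and 3.56 in knockout liver. These ranges overlapped, and the change was 0.47 ± 0.38 (1.39-fold; adjusted p = 0.793). Cd5l, the secreted protein, was at 4.13 and 4.19 in wild-type, at 4.25, 4.17 and 3.73 in hemizygous and at 4.89, 4.66 and 5.26 in knockout liver. All knockout arrays were higher than the controls, with a change of 0.78 ± 0.58 (1.71-fold; adjusted p = 0.775).

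At an unadjusted p under 0.05 in limma this comparison had 3 of the 7 genes higher, Marco (unadjusted p = 0.0303), Csf1r (unadjusted p = 0.0419) and Vsig4 (unadjusted p = 0.0482), beside 4.53% of all genes tested. At an adjusted p under 0.05 it called 7 genes of all (0.0258%), none of them among the 7. In whole liver, more macrophages and more RNA per macrophage cannot be told apart. No slide held both groups, so slide and genotype can be separated only by way of the hemizygous arrays. With slide as a fixed block the median change of the 7 was 0.62, beside 0.15 for all genes.

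Against hemizygous liver, with the same knockout arrays, the 7 genes were again all higher on average, with a median change of 0.84 beside 0.06 for all genes. Marco had a change of 1.92 ± 0.77 (3.78-fold; adjusted p = 0.520), Adgre1 of 0.96 ± 0.66, Cd5l of 0.88 ± 0.52, Vsig4 of 0.84 ± 0.50 and Csf1r of 0.76 ± 0.40. Clec4f had a change of 0.37 ± 0.34 and Timd4 of 0.21 ± 0.58, which was -0.27 without knockout animal 137 and -0.01 without hemizygous animal 30. The knockout arrays lay above the hemizygous arrays without overlap for the same 5 genes as above, against 16% of all genes in that direction. None of the 7 was among the 14 genes (0.0516%) called at an adjusted p under 0.05, and Marco alone passed an unadjusted 0.05 (unadjusted p = 0.0249), beside 4.02% of all genes in that direction. On the slide that held both groups, the knockout animal 137 was above the mean of hemizygous animals 27 and 28 for all 7 genes, by 0.42 for Clec4f up to 1.57 for Marco. In hemizygous against wild-type liver the changes of the 7 genes lay between -0.11 and 0.56 with 6 of 7 above 0 and a median of 0.14, and no gene on the array was called in this comparison with limma (344, or 1.27%, had an unadjusted p under 0.05). On the slide that held 1 hemizygous and both wild-type arrays, 5 of the 7 genes were lower in the hemizygous array, from -0.27 for Marco to -0.43 for Cd5l, and Vsig4 (0.04) and Adgre1 (0.35) were higher. With slide as a block the median was -0.31, so its direction turned.

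Other genes known from Kupffer cells were spread to both sides in 2-month knockout liver. Of 18 further Kupffer cell genes, 14 had a change above 0 and the median was 0.45. At an unadjusted p under 0.05 there were 3 higher and 1 lower (4.53% and 4.33% of all genes), and none after adjustment. Id3, a transcriptional regulator needed by Kupffer cells, had a change of 2.01 ± 0.64, and the complement C1q subunits C1qc and C1qa had changes of 1.28 ± 0.49 and 1.16 ± 0.54. Hpgd, which degrades prostaglandins, had a change of -1.13 ± 0.31 (unadjusted p = 0.00241; adjusted p = 0.295). The lowest change of the list was that of Cd163, at -2.02 against wild-type and -1.83 against hemizygous liver. It did not pass an unadjusted 0.05 in limma in either comparison. Among 12 CSF1 receptor ligands and macrophage regulators, 4 were higher and 1 lower at an unadjusted 0.05 (4.53% and 4.33% of all genes). The gene of PU.1 itself, Spi1, was well above background on 2 of 3 knockout arrays and no wild-type array (adjusted p = 0.373). Runx1 was well above background on 1 of 3 knockout arrays and no wild-type array (adjusted p = 0.513), and no fold is given for either gene. Zeb2, a repressor that macrophages need to keep their tissue identity, had a change of 1.17 ± 0.49. The 16 niche signals for Kupffer cells had a median change of 0.12, and Tgfb1 (1.23 ± 0.48) was the 1 member past an unadjusted 0.05.

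Genes listed here as markers of other macrophages were also higher on average in the same mice. The RNA came from whole liver, so for these and all later marker lists the cells that carried the transcripts are not known. Of 13 markers of recruited monocytes and macrophages, 11 had a change above 0 and 8 were higher at an unadjusted p under 0.05, with a median of 2.23. Of all genes, 4.53% were higher at that threshold. Gpnmb, a lysosomal glycoprotein of lipid-laden macrophages, was well above background on 3 of 3 knockout arrays and on no wild-type array, which makes it at least 50.6-fold higher (adjusted p = 0.255). That bound sets the knockout mean against the dimmest signal that counts as well above background, or the probe's own signal where that is higher, on each wild-type array. Trem2, a lipid receptor, had a change of 3.65 ± 0.96, Cx3cr1, the fractalkine receptor, of 2.41 ± 0.78, and Ly6c1 of 2.02 ± 0.56. All 11 pan-macrophage markers had changes above 0 (median 1.45; 6 with an unadjusted p under 0.05), among them lysozyme Lyz2 with 1.61 ± 0.60 and the adaptor Tyrobp with 1.51 ± 0.58. None of these genes passed after adjustment. Their summed linear signals in pan-macrophage markers were 31.1 in both wild-type arrays, 32.4 to 40.2 in hemizygous and 80.2 to 90.8 times the 75th percentile in knockout arrays. The part of such cells in the changes of the 7 genes was not tested.

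Markers of other cells also differed in part. Against wild-type liver, 4.53% of all genes were higher at an unadjusted p under 0.05. Of the 10 neutrophil markers tested, 4 were higher at an unadjusted 0.05, with S100a8 at least 26.1-fold higher (adjusted p = 0.0530) than in wild-type arrays, none of which was well above background, and the list summed to between 1.09 and 1.39 in wild-type and between 2.67 and 7.71 in knockout arrays. Against hemizygous liver S100a8 was at least 31.6-fold higher and passed the adjusted test (adjusted p = 0.0254), as did S100a9 (4.22 ± 0.60; adjusted p = 0.0254). Of 12 stellate cell markers 9 were higher at an unadjusted 0.05. The 12 endothelial markers had a median change of 0.10 and none past an unadjusted 0.05, and the 10 hepatocyte markers had a median of -0.11 and none either.

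**Figure D2:**
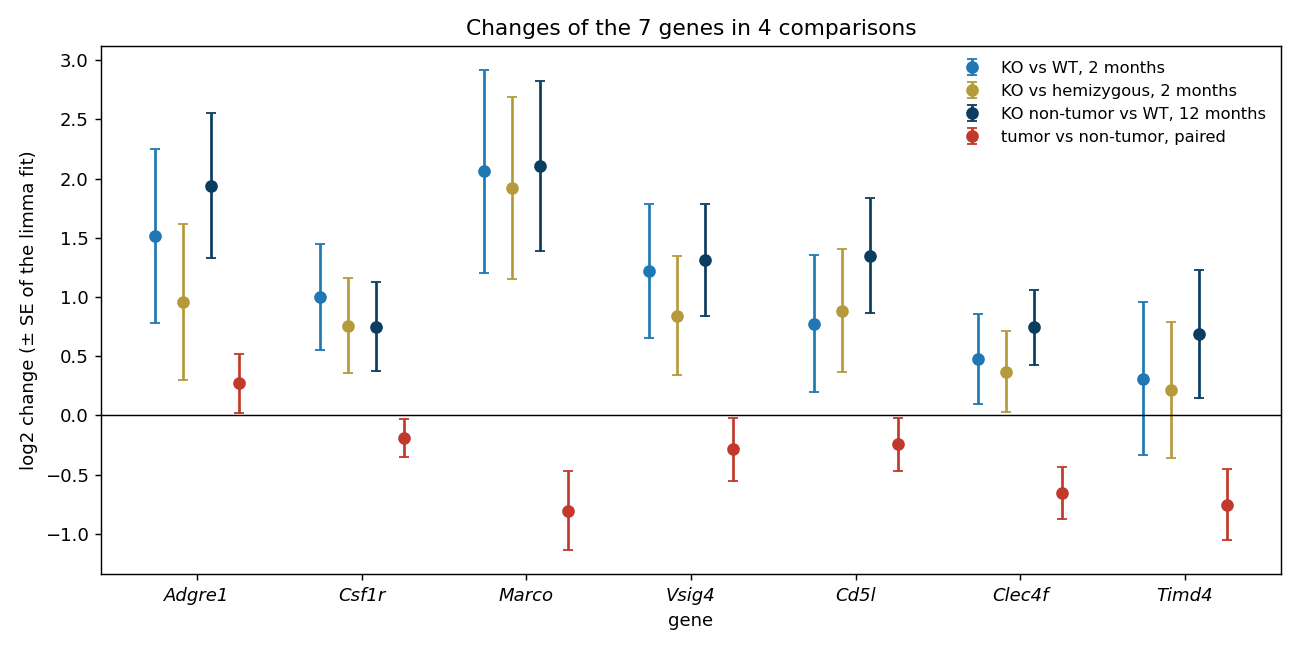
Log2 change (y axis, point with its SE from limma) of the 7 genes (x axis) in 3 genotype comparisons and in the paired comparison of tumor with non-tumor tissue. In the genotype comparisons all points lie above 0, with Marco highest (1.92 to 2.10) and Timd4 lowest (0.21 to 0.69), and in the tumor comparison only Adgre1 lies above 0.

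At 12 months the 7 genes were again all higher on average in knockout non-tumor liver than in wild-type liver, by 1.61-fold to 4.29-fold, with a median change of 1.31 beside -0.09 for all genes. None passed the test over all genes. The wild-type mice spread widely, with animal 1110 the lowest of all 25 arrays for Csf1r, Adgre1, Vsig4 and Cd5l.

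Csf1r was at 1.98, 1.43 and 0.31 in wild-type animals 552, 641 and 1110, and at 2.42, 1.99, 1.92 and 1.63 in knockout animals 638, 702, 793 and 1109. The groups overlapped, and the change was 0.75 ± 0.37 (1.68-fold; adjusted p = 0.324). The other probes of Csf1r, which are dimmer, had changes of -0.07 and -1.11, so the direction at 12 months differed between probes. Adgre1 was at 1.84, 0.45 and -0.89 in those wild-type animals and at 1.26, 2.40, 3.34 and 2.62 in the knockout animals, in the same order. Its change was 1.94 ± 0.61 (3.84-fold; unadjusted p = 0.00678; adjusted p = 0.149), and its second, dimmer probe gave 0.39.

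Marco was at 2.19, 2.48 and 0.62 in wild-type and at 4.01, 2.16, 6.06 and 3.23 in knockout liver. Knockout animal 702 lay within the wild-type range and animal 793 was the highest of all 25 arrays. The change was 2.10 ± 0.72 (4.29-fold; adjusted p = 0.166). Timd4 was at -3.21, -2.67 and -3.27 in wild-type and at -2.0, -3.50, -1.05 and -2.88 in knockout liver. It ran with Marco across the knockout animals, 793 highest and 702 lowest, and its change was 0.69 ± 0.54 (1.61-fold; adjusted p = 0.561).

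Vsig4 was at 1.13, 0.92 and -1.31 in wild-type and at 1.28, 1.81, 1.68 and 1.47 in knockout liver. It was the only one of the 7 whose arrays did not overlap, against 5.42% of all 27124 genes tested in that direction, and the nearest values were 1.28 and 1.13. The change was 1.31 ± 0.47 (2.49-fold; adjusted p = 0.178). Clec4f was at 3.29, 3.10 and 1.98 in wild-type and at 3.98, 3.20, 3.65 and 3.30 in knockout liver, with a change of 0.74 ± 0.32 (1.67-fold; adjusted p = 0.247). Cd5l was at 5.29, 4.16 and 2.58 in wild-type and at 4.53, 5.68, 5.80 and 5.41 in knockout liver, with a change of 1.35 ± 0.49 (2.54-fold; adjusted p = 0.179). For both genes the wild-type animal 552 reached into the knockout range.

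At an unadjusted p under 0.05, 5 of the 7 genes were higher (Adgre1, Marco, Vsig4, Cd5l and Clec4f), beside 8.58% of all genes, and the adjusted test called 4 genes in all (0.0147%), none of them among the 7. With 1 array left out at a time the median change of the 7 ran from 0.58 (without wild-type animal 1110, the low one) to 1.75 (without wild-type animal 552). Without knockout animal 638 the adjusted test called 2850 genes, Adgre1 among them (2.32; adjusted p = 0.0317). Wild-type animals 552 and 1110 were scanned on another day than all knockout non-tumor arrays, and against animal 641 alone, scanned on the same day, the differences were 1.95 for Adgre1, 1.39 for Marco, 1.20 for Cd5l, 0.64 for Vsig4, 0.56 for Csf1r, 0.44 for Clec4f and 0.31 for Timd4.

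Of the 18 further Kupffer cell genes, 12 had a change above 0 at 12 months, 7 were higher and 1 lower at an unadjusted 0.05 (8.58% and 8.66% of all genes), and the median was 0.58. Spic, a regulator of iron-recycling macrophages, had a change of 1.69 ± 0.46, Clec1b of 1.20 ± 0.40 and the iron exporter gene Slc40a1 of 1.0 ± 0.35. The lipid transfer gene Pltp had a change of -2.35 ± 0.79. Of 12 ligands and regulators, 3 were higher and 1 lower, with Csf2ra, a subunit of the GM-CSF receptor, at 1.53 ± 0.44, Irf8 at 1.04 ± 0.36, Zeb2 at 1.14 ± 0.41 and Cebpa at -1.27 ± 0.41. Of 18 scavenger and dead cell uptake receptors, 8 were higher and 1 lower. The mannose receptor Mrc1 had a change of 1.11 ± 0.32, the Fc receptor Fcgr1 of 1.84 ± 0.54, Havcr2 of 2.24 ± 0.66, and Havcr1, a relative of Timd4 that also binds phosphatidylserine, of -0.86 ± 0.30. At 2 months the same list had 2 higher, Axl at 1.43 ± 0.50 and Cd36 at 1.02 ± 0.47. None of these passed after adjustment.

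Markers of recruited cells and of macrophages in general were higher on average at 12 months, and none passed after adjustment. Of all genes, 8.58% were higher at an unadjusted p under 0.05. Of 13 recruited markers 12 had changes above 0 and 9 an unadjusted p under 0.05 (median 1.40), with Spp1 at 2.04 ± 0.53 and the monocyte chemokine receptor Ccr2 at 1.77 ± 0.62. Of 11 pan-macrophage markers all had changes above 0 and 10 an unadjusted p under 0.05 (median 1.55), with Aif1 at 1.98 ± 0.48 and Lyz2 at 1.91 ± 0.50. Their summed signals spanned 19.9 to 76.5 on the wild-type arrays, while the knockout arrays spanned 79.0 to 246. T and NK cell markers had 5 of 10 higher at an unadjusted 0.05 (median 1.29), with Cd8a at 2.72 ± 0.61. Of the 10 hepatocyte markers, 8 had changes below 0 (median -0.42). At an unadjusted 0.05 there were 3 lower and 1 higher (8.66% and 8.58% of all genes), and Apob had a change of -2.05 ± 0.47. The part of these cells in the changes of the 7 genes was not tested. The genotype difference at 12 months less that at 2 months had a median of 0.27 over the 7 genes, with 6 of 7 above 0 and none called, and the 2 genotype comparisons share no array.

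Between ages none of the 7 genes passed the test over all genes. Within wild-type liver 6 of 7 were lower at 12 than at 2 months with a median of -0.13 and a range from -0.93 to 0.10. The lowest was Timd4, at -1.83 and -2.42 at 2 months and at -3.21, -2.67 and -3.27 at 12 months. Its groups did not overlap, against 12.4% of all genes in that direction, and the change was -0.93 ± 0.65 (adjusted p = 0.628), but 0.24 with slide as a block. None of the 7 was among the 11 genes (0.0406%) called.

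Within knockout non-tumor liver, 6 of the 7 genes were lower at 8 than at 2 months. Csf1r was at 1.72, 1.91 and 0.98 in the 8-month animals 1347, 1287 and 934, and all lay below the 2-month knockout arrays, with a change of -0.91 ± 0.40 (adjusted p = 0.290). Marco was at 3.57, 1.98 and 2.59 (change -1.24 ± 0.77) and Clec4f at 2.63, 2.52 and 2.82 (change -0.64 ± 0.34), likewise without overlap. Non-overlap in that direction was seen for 11.5% of all genes. Timd4 was at -2.25, -3.59 and -2.36 (change -0.92 ± 0.58) and Vsig4 at 1.70, 1.08 and 0.90 (change -0.35 ± 0.51). Adgre1 was at 3.32, 2.35 and 1.16, both above and below the 2-month arrays (change 0.39 ± 0.66, and -0.13 without animal 1347). Cd5l at 5.0, 5.11 and 4.52 had a change of -0.06 ± 0.52, which was 0.10 without 2-month animal 137 and 0.12 without animal 934. No gene on the array was called in this comparison (limma; 4338 had an unadjusted p under 0.05), and Csf1r alone of the 7 passed an unadjusted 0.05 (unadjusted p = 0.0394), beside 7.49% of all genes in that direction.

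From 8 to 12 months in knockout non-tumor liver all 7 genes were higher on average, with a median change of 0.45. Clec4f had a change of 0.88 ± 0.32 (1.83-fold; unadjusted p = 0.0154, as for 1.12% of all genes in that direction; adjusted p = 0.916), and its arrays at 12 months (3.20 to 3.98) all lay above those at 8 months (2.52 to 2.82), as was so for 2.01% of all genes. Marco had a change of 1.15 ± 0.72, Cd5l of 0.48 ± 0.49, Csf1r of 0.45 ± 0.37, Timd4 of 0.37 ± 0.54, Vsig4 of 0.34 ± 0.47 and Adgre1 of 0.13 ± 0.61. Adgre1 was at -0.43 without animal 934 and -0.18 without animal 793, and Timd4 at -0.05 without animal 1287 and -0.06 without animal 793. No gene was called (limma; 1419 had an unadjusted p under 0.05). Between 2 and 12 months in knockout liver the 7 changes lay on both sides of 0, 3 above and 4 below, with a median of -0.01, and none was among the 2 genes (0.00737%) called.

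In tumors, Clec4f, Timd4 and Marco were lower than in the non-tumor liver of the same animal in 6 of 7 animals, while Adgre1 was lower in 3 of 7. The mean differences were -0.65 for Clec4f (1.57-fold lower), -0.75 for Timd4 (1.69-fold lower), -0.80 for Marco (1.75-fold lower) and 0.27 for Adgre1 (1.21-fold higher). None passed the test over all 24607 genes, in which no gene was called (limma; 995 had an unadjusted p under 0.05). The tumor and non-tumor arrays of animal 1347 were on different slides scanned on different days, while each other pair shared slide and scan day.

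**Figure D3:**
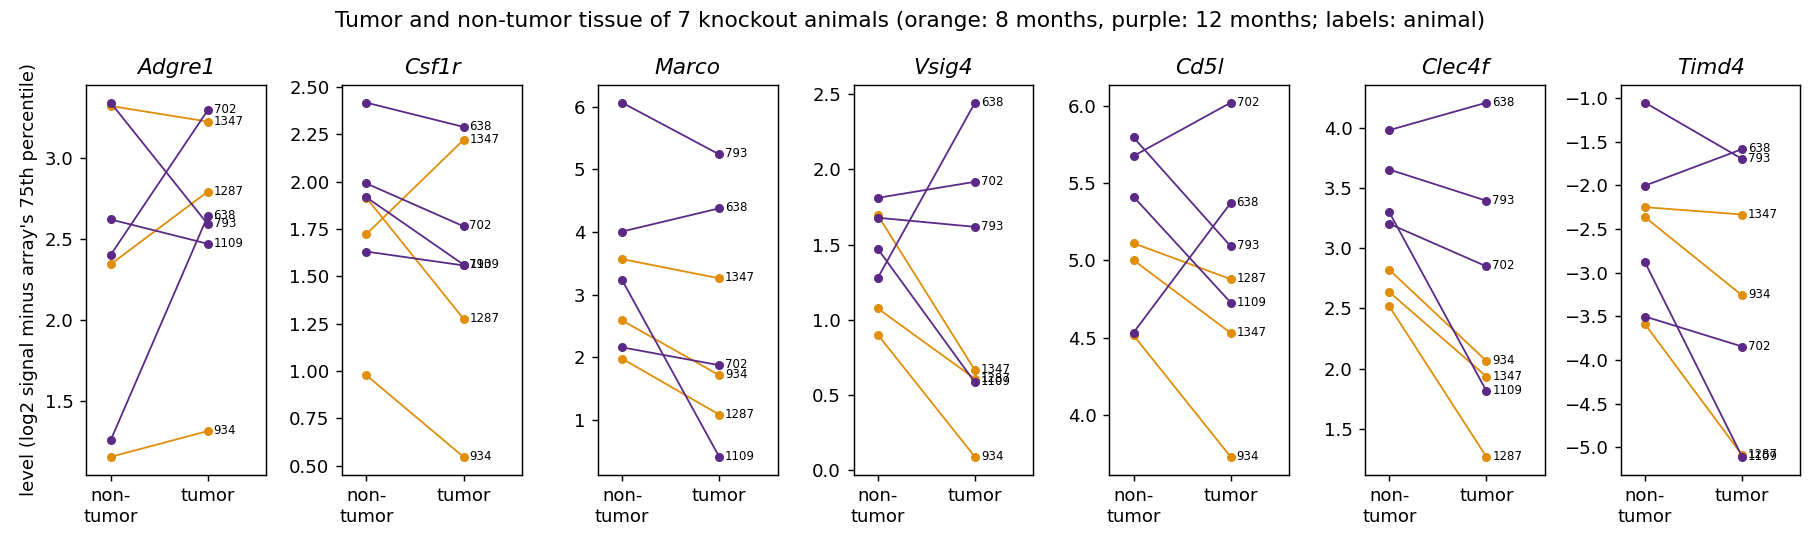
Levels (y axis) of the 7 genes in the non-tumor and tumor tissue (x axis) of the same knockout animal, joined by a line, with 8-month animals in orange and 12-month animals in purple. Animal 638 runs upward for Clec4f, Timd4, Marco, Vsig4 and Cd5l, and animal 1109 has the lowest difference for Marco, -2.82.

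The animals are given in the order 934, 1287, 1347 (8 months), then 638, 702, 793 and 1109 (12 months), each as tumor minus non-tumor. Clec4f differed by -0.76, -1.25, -0.70, 0.23, -0.35, -0.26 and -1.48. Only animal 638 was above 0, and the limma change with the animal as block was -0.65 ± 0.22 (SE; unadjusted p = 0.0150; adjusted p = 0.999). Timd4 differed by -0.90, -1.50, -0.08, 0.42, -0.34, -0.65 and -2.23, again with animal 638 alone above 0, and the change was -0.75 ± 0.30 (unadjusted p = 0.0343; adjusted p = 0.999). Marco differed by -0.87, -0.89, -0.31, 0.37, -0.28, -0.83 and -2.82, with the same exception, and the change was -0.80 ± 0.33 (unadjusted p = 0.0394; adjusted p = 0.999). With normexp and quantile normalization Timd4 was at -0.23, and without animal 1109 Marco was at -0.47. Timd4 and Marco did not pass an unadjusted 0.05 without animal 1109, 1287, 934 or 793, while Clec4f passed it with any 1 animal left out. These 3 genes passed an unadjusted 0.05 downward, beside 1.7% of all genes, and no member was lower in all pairs, as 0.849% of all genes were.

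The other four genes lay nearer 0. Vsig4 differed by -0.81, -0.47, -1.03, 1.17, 0.11, -0.06 and -0.89, so that all 8-month tumors were lower and the 12-month tumors lay on both sides. The age difference of this contrast was 0.85 ± 0.48 for Vsig4 (adjusted p = 0.909), and over the 7 genes it had a median of 0.17 with none called. Cd5l differed by -0.79, -0.23, -0.47, 0.84, 0.34, -0.70 and -0.68 (change -0.24 ± 0.22). Csf1r differed by -0.43, -0.64, 0.50, -0.13, -0.23, -0.36 and -0.07, lower in 6 of 7 animals by small amounts (change -0.19 ± 0.16). Its dimmer probes gave 0.03 and 0.23. Adgre1 differed by 0.16, 0.45, -0.10, 1.39, 0.89, -0.75 and -0.15 (change 0.27 ± 0.25).

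Of the 18 further Kupffer cell genes, 3 were above 0 and 15 below in tumors, with a median of -0.14. Past an unadjusted 0.05 downward there were 2, beside 1.7% of all genes. These were Folr2, a folate receptor of resident macrophages (-0.57 ± 0.20; unadjusted p = 0.0206), and Fcna, a ficolin (-0.57 ± 0.24; unadjusted p = 0.0408). Of the 13 recruited markers 11 were above 0 with a median of 0.23. Past an unadjusted 0.05 upward, beside 2.34% of all genes, were among them Cd9 (0.68 ± 0.15; unadjusted p = 0.00176) and Ccr2 (0.41 ± 0.16; unadjusted p = 0.0293). The 11 pan-macrophage markers had a median of 0.10 with 9 above 0 and none past an unadjusted 0.05. Their summed signals ran from 59.4 to 266 in tumors and from 53.7 to 223 in non-tumor tissue at 8 months, and from 114 to 175 and from 79.0 to 246 at 12 months. The milk fat globule gene Mfge8, a bridge between dying cells and phagocytes, was at 0.91 ± 0.33. The endothelial list had a median of 0.02, and its sinusoidal lectin Clec4g had a difference of -0.54 ± 0.21. All adjusted p of these genes were 0.999, and the part of cell makeup in these differences was not tested.

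Clec4f and Timd4 were next set against Adgre1 on the same array, to see whether genes held to mark resident Kupffer cells differed as Adgre1 did. The quantity is a difference of levels between probes, so its size has no meaning by itself and only its change between arrays is read. Csf1r, the other gene shared by macrophages, was not tested as a reference. Its knockout changes were 1.0 (2 months) and 0.75 (12 months) against wild-type liver, and -0.19 in tumors. Clec4f had 0.47, 0.74 and -0.65 in the same comparisons, and Timd4 had 0.31, 0.69 and -0.75. Clec4f minus Adgre1 was 2.46 ± 0.45 (SD, n = 2) in wild-type, 2.00 ± 0.19 (n = 3) in hemizygous and 1.42 ± 0.20 (n = 3) in knockout liver at 2 months. The knockout arrays (1.25 to 1.64) lay below all controls (1.80 to 2.78). The knockout mean minus the control mean was -1.04 against wild-type and -0.59 against hemizygous liver, each with p = 0.1 in an exact two-sided permutation test, the smallest p that these groups allow. At 12 months it was 2.32 ± 0.76 (n = 3) in wild-type and 1.12 ± 1.08 (n = 4) in knockout non-tumor liver, with overlap, a difference of -1.20 and exact p = 0.171. That difference ran from -1.73 (without knockout animal 638) to -0.92 (without wild-type animal 1110) with 1 array left out, and was -0.42 with all probes of a gene averaged.

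In the 7 pairs, Clec4f minus Adgre1 was lower in the tumor in 6, with a mean difference of -0.92 ± 0.71 (SD, n = 7; exact sign-flip permutation p = 0.0312). Timd4 minus Adgre1 had a difference of -1.21 between knockout and wild-type liver at 2 months (exact p = 0.2), of -0.74 against hemizygous liver (exact p = 0.2) and of -1.25 at 12 months (exact p = 0.229). The last ran from -2.02 (without wild-type animal 552) to -0.68 (without wild-type animal 1110) with 1 array left out, and was -0.47 with all probes averaged. In the pairs it was lower in 5 of 7 tumors, with a mean difference of -1.02 ± 0.85 (SD, n = 7; exact p = 0.0625). The 4 exact permutation tests at 2 months cannot go below p = 0.1 and so could not pass at 0.05. The 4 other exact permutation tests had p between 0.2 and 0.229 after adjustment over all 8 tests (Benjamini-Hochberg). Their smallest possible exact permutation p, before adjustment, is 0.0286 at 12 months and 0.0156 in the pairs. Even if all 8 exact permutation tests had reached their smallest p, none could have passed at 0.05 after this adjustment. That none passed therefore decides nothing.

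**Figure D4:**
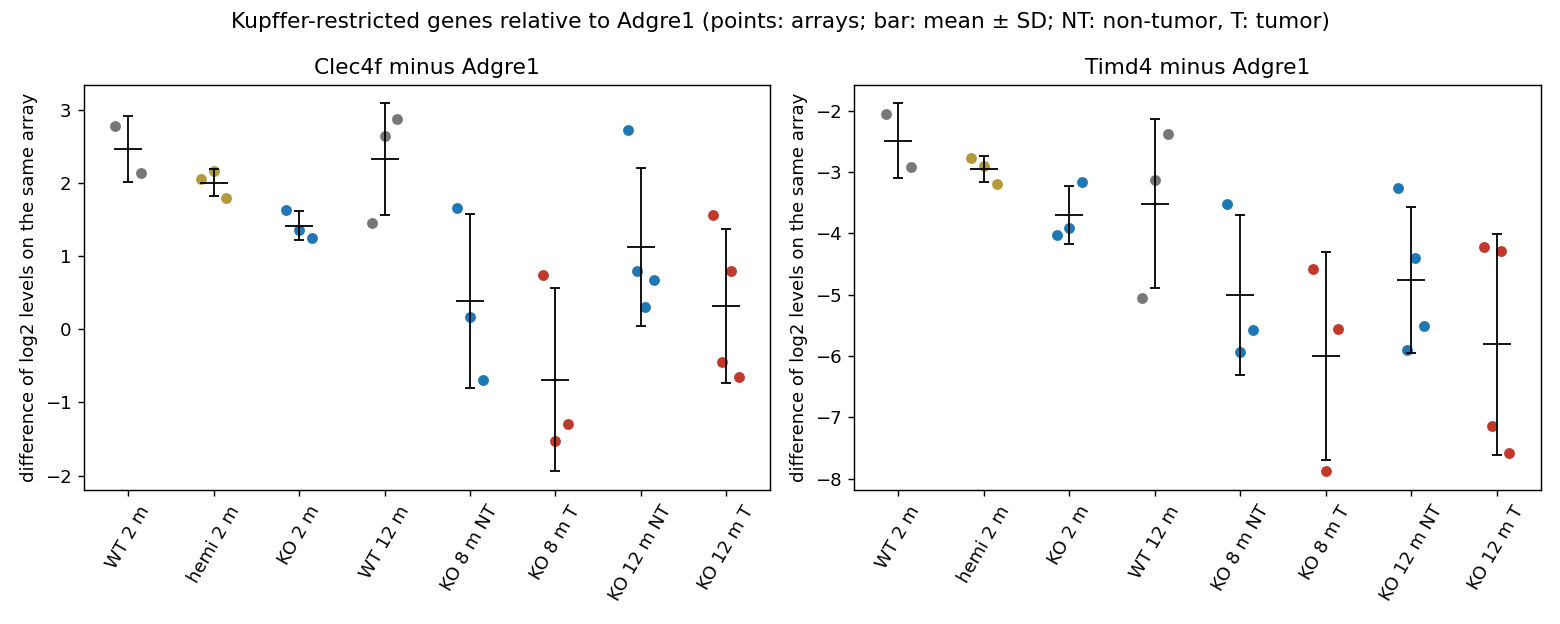
Clec4f minus Adgre1 (left) and Timd4 minus Adgre1 (right) in log2 units on each array (points) by group (x axis), with the group mean ± SD. The mean of Clec4f minus Adgre1 is highest in 2-month wild-type liver (2.46) and lowest in 8-month tumors (-0.69), and the 12-month knockout non-tumor arrays run from 0.31 to 2.72.

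The 7 genes did not vary as 1 block over the 25 arrays. Vsig4 and Cd5l (Pearson r = 0.88 over 25 arrays) and Cd5l and Adgre1 (r = 0.84) ran together. So did Marco and Timd4 (r = 0.73), Clec4f and Timd4 (r = 0.71) and Clec4f and Marco (r = 0.70). Vsig4 also ran with Adgre1 (r = 0.71), Clec4f (r = 0.67) and Marco (r = 0.65). Marco with Cd5l (r = 0.48), Marco with Adgre1 (r = 0.43), Clec4f with Cd5l (r = 0.42) and Timd4 with Vsig4 (r = 0.33) lay lower. The lowest values were those of Clec4f with Adgre1 (r = 0.07), Timd4 with Cd5l (r = 0.02) and Timd4 with Adgre1 (r = -0.10). After each group was centred on its mean, Vsig4 with Cd5l stood at 0.81, Cd5l with Adgre1 at 0.87, Marco with Timd4 at 0.88 and Clec4f with Vsig4 at 0.69, while Clec4f with Adgre1 stood at 0.14 and Timd4 with Adgre1 at 0.09. Csf1r had r with the others from 0.40 (Timd4) to 0.74 (Vsig4). The arrays share animals, slides and the scaling, and these values are a description without a test.

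**Figure D5:**
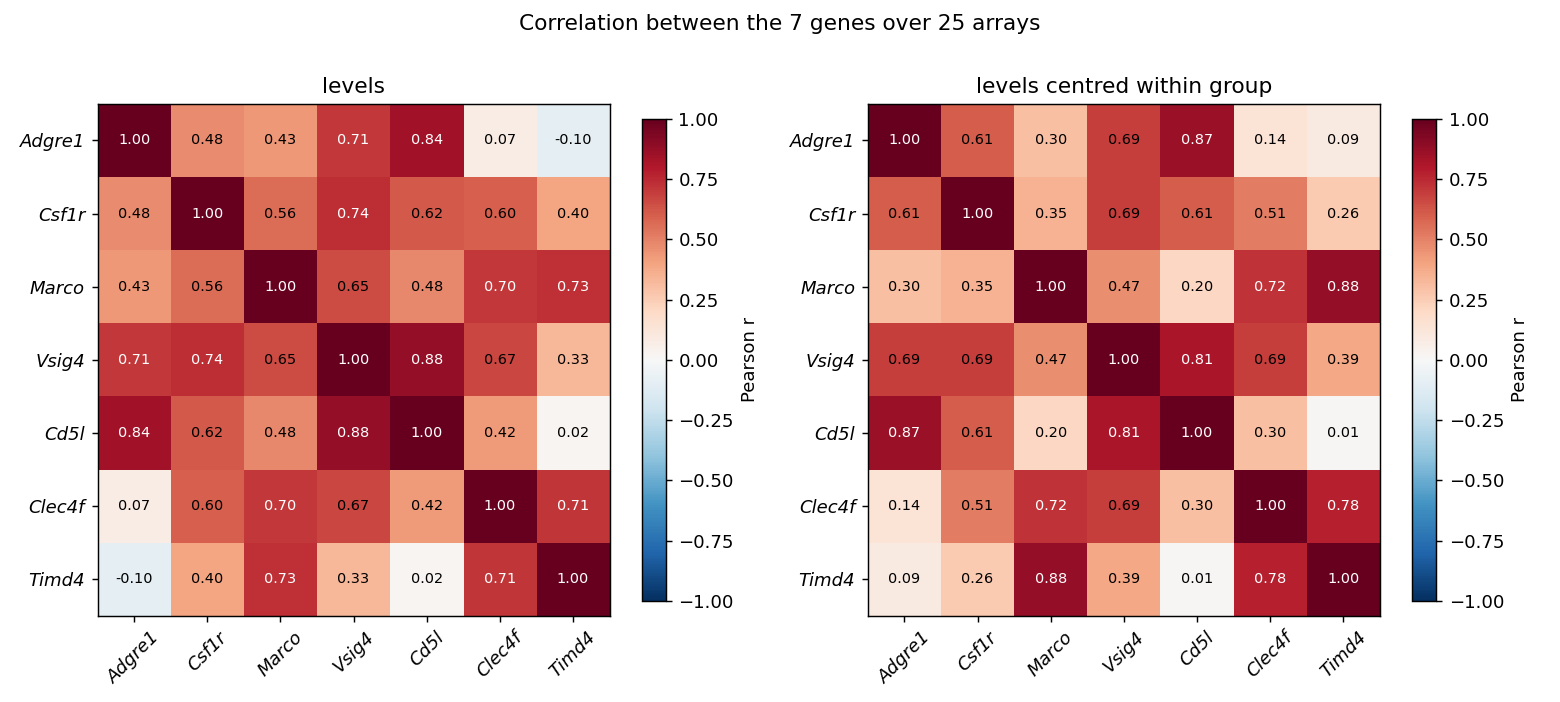
Pearson correlation (colour and number) between the levels of the 7 genes over 25 arrays, as measured (left) and after each group was centred on its mean (right). Adgre1 with Cd5l (0.84 and 0.87) and Marco with Timd4 (0.73 and 0.88) are high in both panels, while Clec4f with Adgre1 (0.07 and 0.14) is low.

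The genes most like each of the 7 over the 25 arrays were taken from 12251 genes. Clec4f was closest to Fcna (r = 0.91), Folr2 (0.89) and properdin, Cfp (0.78). Fcna and Folr2 are themselves known from resident macrophages. They were also the further Kupffer cell genes that were lower in tumors at an unadjusted 0.05. The 25 arrays include those tumor pairs, in which Clec4f was lower too, so this is not a separate observation. Timd4 was closest to the thromboxane receptor gene Tbxa2r (0.75), Fcna (0.74) and Marco (0.73). Marco was closest to the formyl peptide receptor gene Fpr1 (0.78), Cfp (0.77) and Ap3m2 (0.76). Among the others, Vsig4 was closest to Cd5l (0.88), Fabp7 (0.85) and Pcolce2 (0.82), and Cd5l to Adgre4 (0.89), Treml4 (0.88) and Vsig4 (0.88). Adgre1 had the tightest company, Pla2g4a (0.98), Nckap1l (0.97) and Cd300c2 (0.96), of which Nckap1l is known from blood cells in general. Csf1r was closest to Sdc3 (0.91), C1qc (0.89) and Fgd2 (0.87). Seen from Adgre1, Cd5l ranked 344, Vsig4 1106, Csf1r 2781, Marco 3097, Clec4f 5491 and Timd4 6645 of the 12251 genes by likeness. From Clec4f, Timd4 ranked 8, Marco 12, Vsig4 16, Csf1r 32, Cd5l 431 and Adgre1 5424. From Timd4, Marco ranked 3, Clec4f 4, Csf1r 1077, Vsig4 1867, Cd5l 5992 and Adgre1 7317.

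Ordered by group mean, Clec4f ran from 3.53 ± 0.36 in 12-month knockout non-tumor liver through 3.30 in 2-month knockout, 3.06 in 12-month tumors, 2.93 in hemizygous, 2.83 in 2-month wild-type, 2.79 in 12-month wild-type and 2.66 in 8-month non-tumor liver to 1.75 ± 0.43 in 8-month tumors. Only the last step separated groups whose ranges did not overlap. Marco was highest in 2-month knockout (3.95 ± 0.14) and 12-month non-tumor knockout liver (3.87 ± 1.65) and lowest in 12-month wild-type liver (1.76 ± 1.0), with overlap between all neighbours. Timd4 ran from -1.81 ± 0.84 in 2-month knockout liver to -3.56 ± 1.40 in 8-month tumors, also with overlap at every step. Adgre1 was at 2.75 ± 0.37 in 12-month tumors, 2.45 in 8-month tumors, 2.41 and 2.28 in 12-month and 8-month non-tumor knockout liver and 1.89 in 2-month knockout liver. The next group was hemizygous liver at 0.93, and between these the ranges parted, with 12-month (0.47) and 2-month wild-type liver (0.37) last. Vsig4, Cd5l and Csf1r had their lowest mean in 12-month wild-type liver (0.25, 4.01 and 1.24) and no step without overlap.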

How the data were processed

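Cy3-labelled RNA from liver homogenates was hybridised to Agilent single-colour arrays. Per the file headers, the authors deposited Feature Extraction output with one intensity per spot, background-subtracted and detrended within the array. A series matrix deposited by the authors holds log2 values. Its ranks match the log2 median signal without background subtraction, its array medians lie between 6.565 and 6.577, and its normalization and any centring between arrays are not given in the sources used here. The submitters' processing notes name limma without a role.

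Spots without an outlier mark were averaged per probe on the log2 scale, and the 75th percentile of the array was subtracted. The arrays held 43379 non-control spots for 41174 probes. The RefSeq table (GRCm38.p6) named 24375 probes (59.2%) and 17016 genes, and each gene was read by its brightest probe. Each probe without a symbol was kept as an entry of its own and counted among the genes tested. Genes well above background on at least 2 of 18 arrays without tumor tissue, or 3 of 14 paired arrays, were tested with limma 3.58.1 in R 4.3.3, two-sided, with Benjamini-Hochberg adjustment over all genes kept and a threshold of 0.05. The first fit took 6 groups (12 residual degrees of freedom), the second the animal as block (6 residual degrees of freedom). The pairing comes from the animal number in the labels. Deviations of paired arrays from their group means correlated in every animal (r from 0.14 to 0.62), and best with their own partner in 5 of 7. The exceptions were animals 1347 (r = 0.14), whose arrays were on different slides and scan days, and 793 (r = 0.27). Clec4f and Timd4 relative to Adgre1 were tested by exact permutation (scipy 1.17.1). The fits were tested on simulated data. Alternatives were the background correction (normexp with an offset of 50, which took the median signal because the mean signal column was not among those used), quantile normalization, the deposited matrix, the filter, the probe rule, slide, scan day and Xist as covariates, and leaving out each array.

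The 7 genes and the lists of related genes and cell markers were chosen with earlier results of these data known. All 7 genes are given in every comparison, as values or, where little differed, as counts and ranges. From each list described, up to 4 genes with the smallest p in that comparison are named, and likeness is given for the 3 genes with the highest correlation among those well above background on at least 20 of 25 arrays. A gene among the macrophage regulators is not reported here. The number of arrays limits the precision. Mice of a group are separate animals by their numbers, and nothing says how they were housed or bred.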

Additional observations from a re-analysis of the deposited data

Results flagged for a closer look

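In the paired comparison, 1 tumor stood apart from the rest of its set. For Marco, animal 1109 had a tumor minus non-tumor difference of -2.82, while the 6 other animals lay between -0.89 and 0.37. The gap to the next animal, relative to the whole range, was beyond Dixon's 95% limit. By chance about 1 in 20 such sets holds such a value, and 21 sets were examined. The same tumor also had the lowest differences of the set for Clec4f (-1.48) and Timd4 (-2.23).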

How the results depend on the processing

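None of the 7 genes passed the adjusted test under any other setting tried in any comparison, apart from Adgre1 at 12 months without knockout animal 638 (2.32). The number of genes called elsewhere on the array did move. For knockout against wild-type at 2 months, 7 genes became 13 with normexp and quantile normalization, 23 with quantile normalization alone, 17 with the deposited matrix, 17 for probes well above background on every array, 25 with limma's trend and robust options, 43 and 0 with slide as a fixed and a random block, 16 with scan day as a block, 26 with Xist as a covariate and 0 in a fit of only these groups. In the same order of settings, where the count moved by over 1.5 times, knockout against hemizygous went from 14 to 71 (normexp), 51 (matrix), 30 (every array), 61 (trend and robust), 42 (slide fixed) and 57 (only these groups). Hemizygous against wild-type went from 0 to 2 (quantile), 1 (no filter) and 18 (slide fixed). Knockout against wild-type at 12 months went from 4 to 467 (normexp), 159 (matrix), 446 (every array), 301 (trend and robust), 2 (slide random), 3337 (scan day) and 0 (only these groups). Wild-type by age went from 11 to 30 (normexp), 64 (quantile), 25 (matrix), 32 (every array), 43 (trend and robust), 106 (slide fixed), 0 (slide random), 93 (scan day), 19 (Xist) and 0 (only these groups). Knockout 8 against 2 months went from 0 to 405 (normexp), 2 (quantile), 198 (matrix), 50 (every array), 26 (trend and robust), 21 (scan day) and 1 (Xist). Knockout 12 against 2 months went from 2 to 119 (normexp), 13 (quantile), 29 (matrix), 0 (no filter), 4 (trend and robust), 0 (slide random), 858 (scan day), 7 (Xist) and 1328 (only these groups). The age difference of the genotype effect went from 0 to 5 (normexp), 1 (quantile), 2 (matrix), 1 (every array), 1 (trend and robust) and 301 (scan day). Slide as a fixed block also moved the median of the 7 genes at 2 months to 0.62 for knockout and to -0.31 for hemizygous against wild-type, and allowed no value for comparisons of knockout non-tumor liver at 8 or 12 months with another group. The causes were not tested.

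With 1 array left out, the counts ran from 0 to 13 (knockout against wild-type, 2 months), 0 to 10 (against hemizygous), 0 to 19 (hemizygous against wild-type), 1 to 2850 (12 months), 8 to 1655 (wild-type by age), 0 to 1 (knockout 8 against 2 and 12 against 8 months), 0 to 853 (12 against 2 months) and 0 to 284 (age difference of the genotype effect). The largest came without knockout animal 638 (2850, 853 and 284) and wild-type animals 641 (1655) and 31 (13 and 19). At 2 months the count against wild-type was 0 without knockout animal 137, 64 or 69, and that against hemizygous was 0 without hemizygous animal 28 or 30 or knockout animal 64. At 12 months it was 53 without wild-type animal 552, 35 without 641 or 1110, and 1 without knockout animal 702, 793 or 1109. The median of the 7 genes at 12 months ran from 0.58 to 1.75.

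Directions turned for single genes. With all probes of a gene averaged, Csf1r was at -0.14 for knockout against wild-type at 12 months and 0.022 in tumors, and Adgre1 at -0.10 for knockout 8 against 2 months. Timd4 was at 0.24 for wild-type by age with slide as a block, Cd5l at 0.0028 for knockout 8 against 2 months with Xist as a covariate, and Vsig4 at 0.081 in tumors of 12-month animals. With 1 array left out Timd4 ran from -0.17 to 0.61 (knockout against wild-type), -0.27 to 0.47 (against hemizygous) and -0.061 to 0.76 (knockout 12 against 8 months), Adgre1 from -0.13 to 0.95 (knockout 8 against 2 months) and -0.43 to 0.66 (12 against 8 months), and Cd5l from -0.20 to 0.12 (8 against 2 months). The paired comparison without the animal as a block had the same median of the 7 genes (-0.28) and 0 genes called.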
